A study of Homo sapiens with 9 samples.

Results

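A set of 10 melanosome genes, 4 for ion and solute transport across the organelle's membrane and 6 for its cargo supply and movement, was followed in 3 untreated subclones of SK-MEL-5. They are the rows of the deposited table of 60675 Ensembl genes that match OCA2, SLC45A2, SLC24A5, TPCN2, RAB38, RAB32, RAB27A, MLPH, MYO5A and MREG, and all 10 were found and passed the filter on low counts. SK-MEL-5 is an established human melanoma line with a mutated BRAF gene. The subclones SC10, SC07 and SC01 were each grown from a single cell by limiting dilution without drug, so each stands for 1 clone of the line. Per the labels they were chosen by their first response to the BRAF inhibitor PLX-4720, without saying how each one responded, and none of the 9 libraries (3 per clone) came from treated cells. The comparisons address how these genes differed between clones before any drug.

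The melanosome is the pigment organelle of melanocytes and is related to the lysosome. Its membrane carries channels and transporters that set the acidity and ion content in which tyrosinase makes melanin. Rab GTPases direct vesicles with pigment enzymes to the maturing organelle, and a complex of RAB27A, its adaptor melanophilin and the motor myosin Va then holds the melanosome on actin at the cell edge. Loss of many of these genes causes albinism or pigment dilution in people or mice.

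The libraries held 30224066 to 39454087 counts, at which 3 counts correspond to between 0.0773 and 0.0948 CPM (counts scaled by the library total and TMM). The lineage markers MITF, PAX3, PMEL, MLANA, TYR, TYRP1 and DCT were detected in all 9 libraries, while SOX10 was listed with 0 counts in each. SOX10 shares 2.4% of its exon bases with POLR2F on the opposite strand. Whether its 0 counts reflect absent RNA or the way the row was counted was not tested. The summed level of the lineage markers was 15200 to 15400 CPM in SC10, 24400 to 24900 CPM in SC07 and 10700 to 11400 CPM in SC01. Markers of other cells were low by comparison. The 7 fibroblast markers summed to 335 to 370 CPM in SC10, 428 to 489 CPM in SC07 and 132 to 137 CPM in SC01, nearly all of it from LUM, and COL1A2, COL3A1 and FAP stayed under 0.1 CPM in every clone mean. The 7 keratinocyte markers summed to 22.7 to 27.2 CPM over all libraries, mostly KRT10, with KRT1 at 0 counts. The 5 immune markers summed to 0.856 to 1.51 CPM in SC10, 3.34 to 3.92 CPM in SC07 and 0.299 to 0.916 CPM in SC01. The 4 endothelial markers summed to 8.34 to 8.92 CPM in SC10, 14.3 to 15.5 CPM in SC07 and 23 to 24.3 CPM in SC01. Mitochondrial rRNA took 1.03% to 1.09% of counts in SC10, 0.976% to 1.03% in SC07 and 0.521% to 0.551% in SC01. Within SC10, replicate 3 was unlike the other libraries (chi-square per degree of freedom 9.47 and 10.5, against 2.47 to 5.61 among the other libraries of a clone). The part that other cells, mitochondrial rRNA or that library has in the results below was not tested, except where values without it are given. Nothing in the labels tells separate cultures from repeat libraries of 1 culture. All p-values therefore rest on library spread that may be technical, and clone cannot be told apart from any batch of culture or extraction.

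Before the values, 4 upstream sequences are shown. They are the 250 bases before the start site of 3 genes that carry an E-box of the kind MITF binds (OCA2, SLC24A5 and MLPH), and of RAB27A (the first of its 5 windows), 1 of the 3 genes with changes of over 2-fold, which carries none in any window. The letters searched were CACGTG, which reads the same on both strands, and CATGTG or its complement CACATG, and capitals mark a match. Sequences are from RefSeq on GRCh38.p14, 5′ to 3′ on the gene's own strand.
OCA2, chr15:28099316-28099565, minus strand: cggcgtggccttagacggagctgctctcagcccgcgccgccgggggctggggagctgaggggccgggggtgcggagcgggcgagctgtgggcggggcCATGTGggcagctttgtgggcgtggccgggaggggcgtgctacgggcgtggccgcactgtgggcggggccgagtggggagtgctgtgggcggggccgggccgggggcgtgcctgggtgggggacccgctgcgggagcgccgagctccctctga
SLC24A5, chr15:48120740-48120989, plus strand: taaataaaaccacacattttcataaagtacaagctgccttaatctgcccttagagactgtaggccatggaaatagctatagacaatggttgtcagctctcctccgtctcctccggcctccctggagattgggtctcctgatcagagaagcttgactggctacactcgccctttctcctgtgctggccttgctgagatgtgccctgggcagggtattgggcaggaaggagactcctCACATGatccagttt
MLPH, chr2:237487001-237487250, plus strand: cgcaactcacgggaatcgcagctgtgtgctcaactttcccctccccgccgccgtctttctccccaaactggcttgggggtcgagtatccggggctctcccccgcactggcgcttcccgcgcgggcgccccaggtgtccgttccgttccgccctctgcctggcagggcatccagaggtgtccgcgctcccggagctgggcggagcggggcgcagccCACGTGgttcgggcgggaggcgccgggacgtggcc
RAB27A, chr15:55319124-55319373, minus strand: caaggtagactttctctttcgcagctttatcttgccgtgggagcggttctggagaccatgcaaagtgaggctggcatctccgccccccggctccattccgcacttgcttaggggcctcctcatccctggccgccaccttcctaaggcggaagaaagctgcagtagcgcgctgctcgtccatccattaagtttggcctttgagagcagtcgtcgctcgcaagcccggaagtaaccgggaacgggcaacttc
A RefSeq window of 250 bases before to 50 after a start was found for 8 of the 10 genes, with 15 windows in all since RAB27A, MLPH and MREG have several starts. SLC45A2 and RAB38 are named only. OCA2 held CATGTG at position -153 from its start, SLC24A5 held CACATG at -15, and MLPH held CACGTG at -35 in the first of its 2 windows. In SLC24A5 the match extended to TCATGTG on the opposite strand, the core of the longer M-box of pigment genes. Over 35116 windows of the same length, 7.26% held CACGTG, 11.1% held CATGTG and 2.92% held TCATGTG on either strand. No match says only that these letters are not in the window.

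All 10 genes differed among the 3 clones in edgeR's quasi-likelihood test, with adjusted p from 4.82e-23 (SLC45A2) to 0.00156 (RAB32), where 76.3% of the 18009 genes tested did so. Taking the comparisons together, the largest differences lay in 3 genes. SLC45A2 and RAB27A were higher in SC10 and SC07 than in SC01, and SLC24A5 was lower in both. MYO5A was highest in SC10, and its log2 change in SC10 against SC01 (0.98) was larger in size than that of SLC24A5 (-0.78). TPCN2, RAB38 and MREG were also highest in SC10. By clone means, 4 of the genes were highest in SC10, 4 in SC07 and 2 in SC01, and 0 were lowest in SC10, 4 in SC07 and 6 in SC01.

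In SC10 against SC01, 8 of the 10 genes passed the threshold, 7 higher and 1 lower, beside 65.9% of all genes tested (33.5% higher and 32.4% lower). The libraries did not overlap for 8 of the genes and for 69.1% of all genes. In SC07 against SC01, 8 passed, 6 higher and 2 lower, beside 62.0% of all genes (31.5% higher and 30.5% lower), and 9 did not overlap, beside 67.4%. In SC10 against SC07 all 10 passed, 6 higher and 4 lower, beside 47.9% of all genes (24.8% higher and 23.0% lower), and all 10 did not overlap, beside 53.4%. Changes of at least 2-fold past the threshold numbered 2 in SC10 against SC01, 3 in SC07 against SC01 and 1 in SC10 against SC07, where 19.5%, 17.8% and 8.62% of all genes did so. The median of the 10 log2 changes was 0.38, 0.28 and 0.23 in these comparisons, and that of all genes was -0.01 in each. Taken without sign, the medians were 0.46, 0.37 and 0.37 for the 10 genes and 0.43, 0.39 and 0.26 for all genes. Scaling by library totals alone put the median of all genes against SC01 at -0.12 in both clones, and the counts became 6 higher and 2 lower in SC10 and 5 higher and 4 lower in SC07, against SC01. Over all genes that scaling gave 5044 higher and 7094 lower in SC10 (6028 and 5836 with TMM) and 4666 higher and 6841 lower in SC07 (5675 and 5487 with TMM). SC10 and SC07 were set against the same SC01 libraries.

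**Figure D1:**
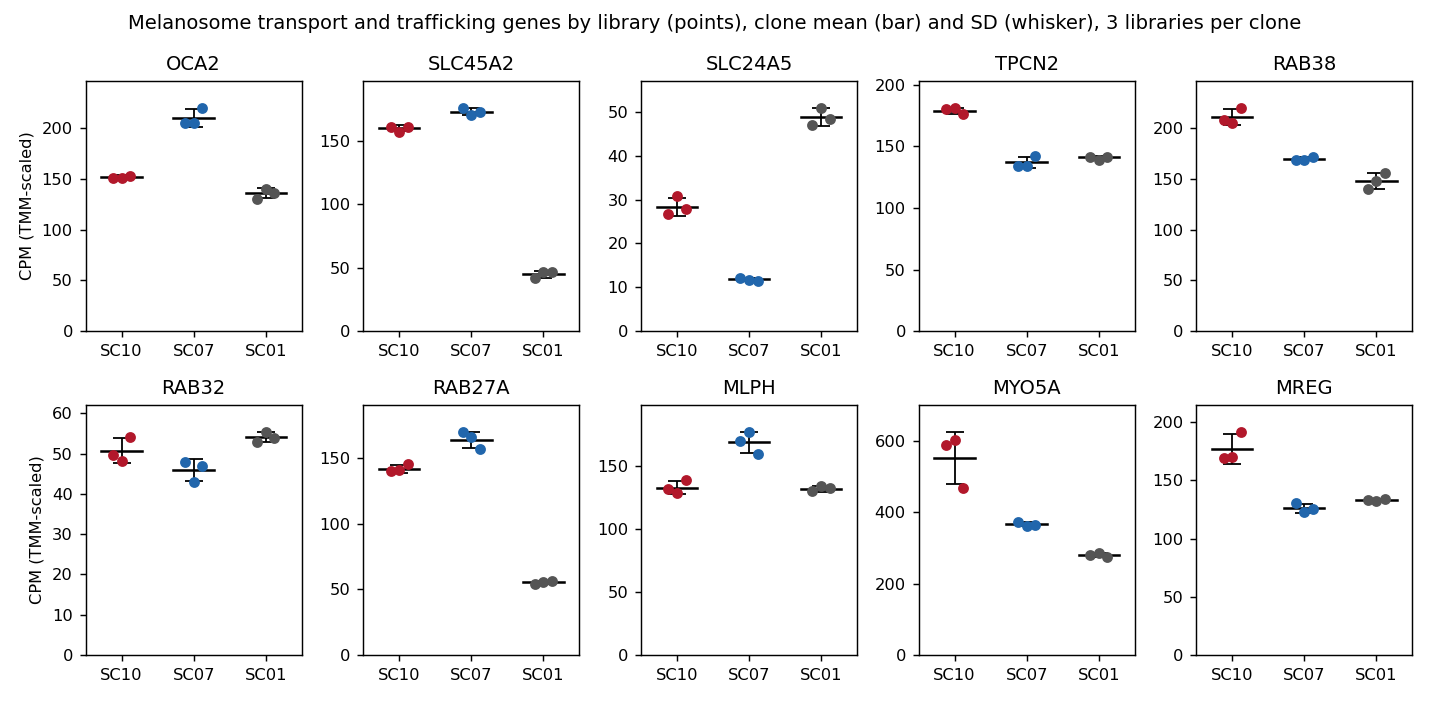
TMM-scaled CPM (vertical axis, from 0) of the 10 genes in each library, by clone. Points are libraries, bars are means and whiskers are SD of 3 libraries. SLC45A2 and RAB27A lie at 140 to 176 CPM in the SC10 and SC07 libraries and at most at 56.3 CPM in SC01, SLC24A5 is lowest in SC07, and the SC10 libraries of MYO5A are spread from 468 to 602 CPM.

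**Figure D2:**
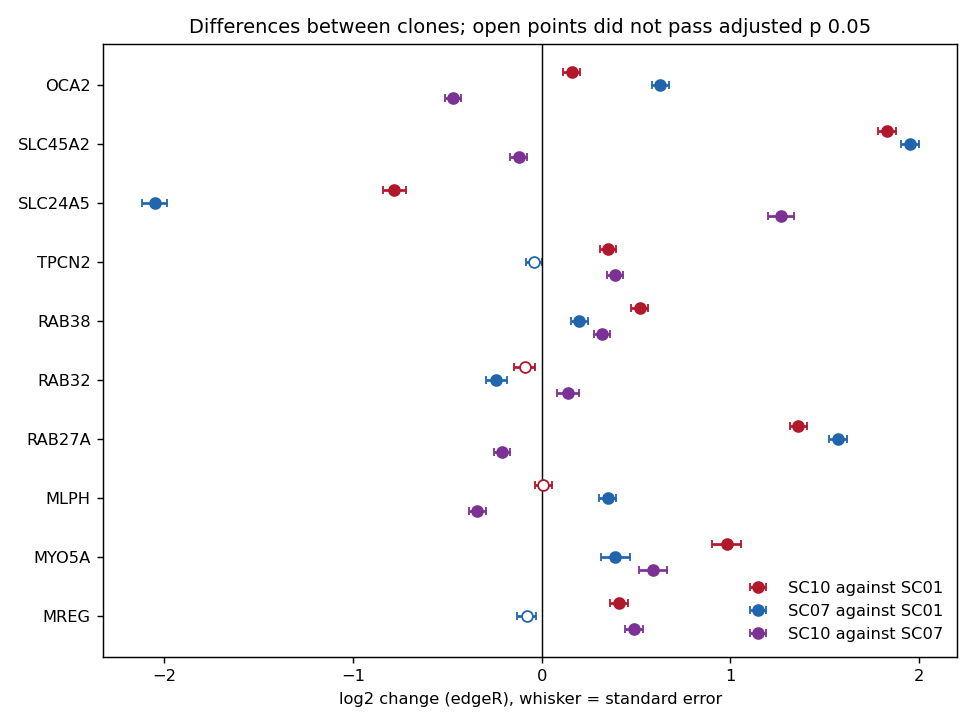
Log2 change (horizontal axis) of each of the 10 genes in the 3 comparisons, with the standard error as whisker. Filled points passed an adjusted p of 0.05 in edgeR and open points did not. SLC24A5 reaches -2.05 in SC07 against SC01, opposite to SLC45A2 at 1.95.

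Of the 4 membrane transport genes, SLC45A2 and SLC24A5 differed by more than 2-fold. SLC45A2 encodes a transporter needed for normal melanosome acidity (ENSG00000164175, GRCh38 chromosome 5, 33944616 to 33984730, minus strand). SLC45A2 measured 161, 157 and 161 CPM in SC10, 176, 170 and 173 CPM in SC07, and 41.8, 46.4 and 46.6 CPM in SC01. Every library of SC10 and SC07 lay above every library of SC01. The log2 change was 1.83 ± 0.048 (SE; 3.55-fold, adjusted p = 2.18e-22, edgeR) in SC10 against SC01 and 1.95 ± 0.048 (3.85-fold, adjusted p = 4.73e-23) in SC07 against SC01. Between SC10 and SC07 it was -0.12 ± 0.045 (adjusted p = 0.0332), and that call was lost without SC01 replicate 2, without SC07 replicate 1 or 3 and without SC10 replicate 1 or 2 (adjusted p from 0.0530 to 0.132).

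SLC24A5 went the other way. It encodes a potassium-dependent sodium and calcium exchanger (ENSG00000188467, chromosome 15, 48120972 to 48142672, plus strand). SLC24A5 measured 26.6, 30.7 and 27.8 CPM in SC10, 12.2, 11.6 and 11.5 CPM in SC07, and 46.9, 50.9 and 48.4 CPM in SC01. The 3 clones did not overlap. SLC24A5 had a log2 change of -0.78 ± 0.061 (adjusted p = 7.84e-12, edgeR) in SC10 against SC01, -2.05 ± 0.067 (adjusted p = 2.76e-20) in SC07 against SC01 and 1.27 ± 0.069 (adjusted p = 1.06e-14) in SC10 against SC07. Of the exon bases of SLC24A5, 32.9% are shared with MYEF2, a nucleic acid-binding protein gene on the opposite strand. MYEF2 measured 29.5 ± 0.28 CPM in SC10, 12.1 ± 1.3 CPM in SC07 and 38.9 ± 0.80 CPM in SC01 (SD, n = 3 each), with log2 changes of -0.40, -1.69 and 1.28 in the same comparisons, all past the threshold. How strand was handled in counting is not stated in the sources used here, so reads from the shared bases cannot be assigned to either gene.

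OCA2 encodes a chloride channel of the melanosome (ENSG00000104044, chromosome 15, 27754875 to 28099358, minus strand). OCA2 measured 151, 151 and 153 CPM in SC10, 205, 205 and 220 CPM in SC07, and 130, 140 and 136 CPM in SC01. The 3 clones did not overlap, and SC07 was highest. Its log2 change against SC01 was 0.16 ± 0.044 in SC10 (adjusted p = 0.00229, edgeR) and 0.63 ± 0.044 in SC07 (adjusted p = 7.87e-13), and SC10 was lower than SC07 (-0.47 ± 0.044, adjusted p = 9.14e-10). With library totals the change in SC10 against SC01 was 0.05 (adjusted p = 0.287).

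TPCN2, a cation channel of endosomes, lysosomes and melanosomes that lowers melanin when active, had another order (ENSG00000162341, chromosome 11, 69048897 to 69162440, plus strand). TPCN2 measured 180, 181 and 176 CPM in SC10, 134, 134 and 142 CPM in SC07, and 141, 139 and 141 CPM in SC01. SC10 was above the other clones, whose libraries overlapped. The log2 change was 0.35 ± 0.042 (adjusted p = 3.47e-08, edgeR) in SC10 against SC01 and 0.39 ± 0.042 (adjusted p = 1.48e-08) in SC10 against SC07. SC07 against SC01 gave -0.04 ± 0.042 (adjusted p = 0.455), or -0.15 with library totals (adjusted p = 0.00285). Of the exon bases of TPCN2, 2.99% are shared with AP003071.5, which did not pass the filter.

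RAB38 and RAB32 are close relatives that bring pigment enzymes to melanosomes, and in mice either can in part stand in for the other. RAB38 (ENSG00000123892, chromosome 11, 88113242 to 88175467, minus strand) measured 208, 205 and 220 CPM in SC10, 169, 169 and 172 CPM in SC07, and 140, 148 and 156 CPM in SC01. The clones did not overlap, with SC10 highest and SC01 lowest. RAB38 had a log2 change of 0.52 ± 0.046 (adjusted p = 9.06e-11, edgeR) in SC10 against SC01, 0.20 ± 0.046 (adjusted p = 0.000398) in SC07 against SC01 and 0.32 ± 0.045 (adjusted p = 1.6e-06) in SC10 against SC07. With library totals the change in SC07 against SC01 was 0.09 (adjusted p = 0.0590).

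RAB32 (ENSG00000118508, chromosome 6, 146543693 to 146554965, plus strand) varied least among the clones. RAB32 measured 49.6, 48.3 and 54.2 CPM in SC10, 48.0, 42.9 and 47.0 CPM in SC07, and 53.0, 55.5 and 53.8 CPM in SC01. SC10 overlapped with SC01, and SC07 lay below both. In SC07 against SC01 RAB32 was lower, with a log2 change of -0.24 ± 0.055 (adjusted p = 0.000545, edgeR). In SC10 against SC01 the value was -0.09 ± 0.055 (adjusted p = 0.137), and it passed without SC10 replicate 3 (-0.14, adjusted p = 0.0180) and with library totals (-0.21, adjusted p = 0.00169). In SC10 against SC07 it was 0.14 ± 0.056 (adjusted p = 0.0357), a call lost without SC07 replicate 2 or SC10 replicate 3 (adjusted p = 0.210 and 0.109), with DESeq2 (0.0524), with no filter (0.0549) and in the fit of that pair alone (0.0559).

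The 3 genes of the actin capture complex differed by clone in 3 ways. RAB27A, the GTPase that marks mature melanosomes (ENSG00000069974, chromosome 15, 55202966 to 55319113, minus strand), measured 140, 141 and 146 CPM in SC10, 170, 166 and 157 CPM in SC07, and 54.1, 55.7 and 56.3 CPM in SC01. SC10 and SC07 both lay far above SC01. The log2 change was 1.36 ± 0.046 (2.57-fold, adjusted p = 6.34e-20, edgeR) in SC10 against SC01 and 1.57 ± 0.046 (2.97-fold, adjusted p = 2.24e-21) in SC07 against SC01. Between SC10 and SC07 it was -0.21 ± 0.044 (adjusted p = 0.000275). RAB27A shares 3.26% of its exon bases with PIGB and PIGBOS1, which averaged 15.3 and 6.74 CPM in SC10, 13.4 and 5.33 CPM in SC07, and 13.3 and 5.53 CPM in SC01.

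MLPH encodes melanophilin, which links RAB27A to the motor (ENSG00000115648, chromosome 2, 237485428 to 237555318, plus strand). MLPH measured 132, 129 and 139 CPM in SC10, 170, 177 and 160 CPM in SC07, and 130, 134 and 133 CPM in SC01. SC07 lay above the other clones, which overlapped. MLPH had a log2 change of 0.35 ± 0.046 (adjusted p = 1.5e-07, edgeR) in SC07 against SC01, -0.34 ± 0.046 (adjusted p = 4.91e-07) in SC10 against SC07 and 0.01 ± 0.046 (adjusted p = 0.864) in SC10 against SC01. The last value was -0.10 with library totals (adjusted p = 0.0534).

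MYO5A encodes myosin Va, the motor of the complex (ENSG00000197535, chromosome 15, 52307283 to 52529050, minus strand). MYO5A measured 588, 602 and 468 CPM in SC10, 372, 363 and 365 CPM in SC07, and 280, 286 and 274 CPM in SC01. All 3 clones were separate, but SC10 replicate 3 lay well under the other SC10 libraries. MYO5A had a log2 change of 0.98 ± 0.077 (1.98-fold, adjusted p = 1.99e-07, edgeR) in SC10 against SC01, 0.39 ± 0.076 (adjusted p = 0.000774) in SC07 against SC01 and 0.59 ± 0.076 (adjusted p = 4.03e-05) in SC10 against SC07. Without SC10 replicate 3 the values were 1.09 and 0.71 in SC10 against SC01 and against SC07.

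MYO5A is the longest of the 10 genes, with 12.99 kb of exons, and SC10 replicate 3 differed from the other SC10 libraries by gene length. Among genes of at least 10 CPM, those with over 12 kb of exons lay at a median of -0.151 on the log2 scale in SC10 replicate 3 against the mean of the other SC10 libraries (728 genes). Those of up to 2 kb lay at 0.134 (749 genes). MYO5A itself lay at -0.345, and RAB38 and RAB32, with 1.47 and 1.22 kb of exons, lay at 0.093 and 0.145. Between clones the medians by length class were smaller. Genes over 12 kb lay at -0.01 in SC10 against SC01, 0.06 in SC07 against SC01 and -0.07 in SC10 against SC07. Within the other clones, replicate 3 had the same direction as in SC10, to a smaller extent. From genes of up to 2 kb to those over 12 kb, the medians ran from 0.039 to -0.03 in SC01 replicate 3 and from 0.042 to -0.014 in SC07 replicate 3. They ran the other way in SC01 replicate 1 (-0.055 to 0.025) and SC07 replicate 2 (-0.045 to 0.005).

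**Figure D3:**
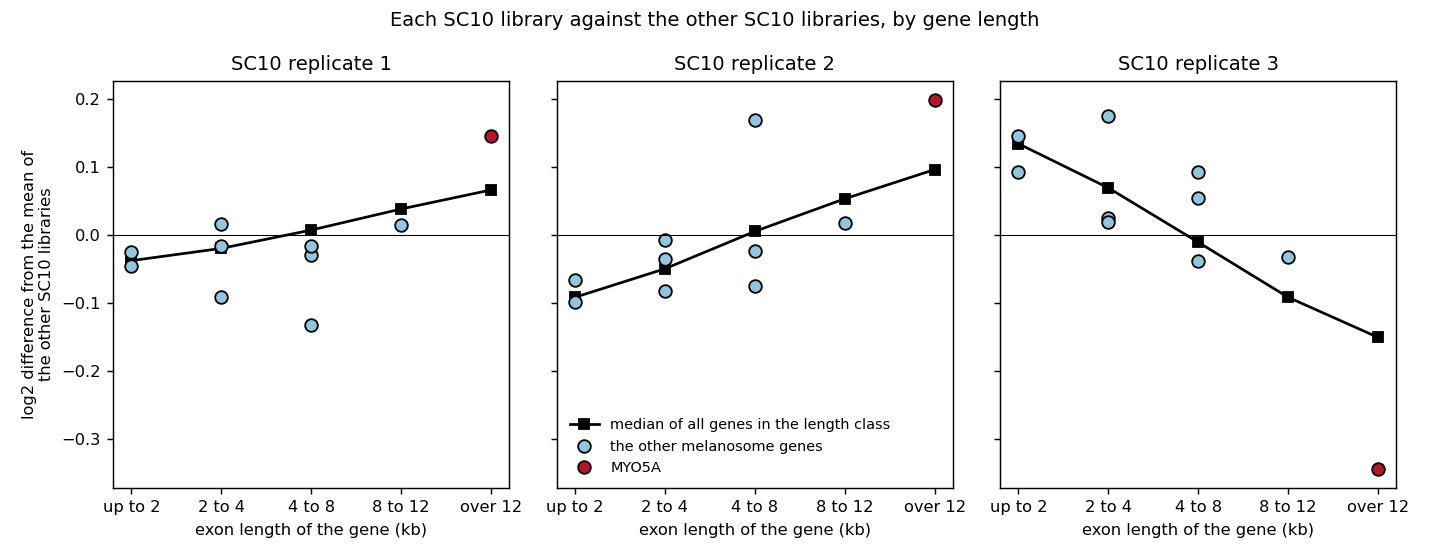
Log2 difference of each SC10 library from the mean of the other SC10 libraries (vertical axis) by exon length of the gene in kb (horizontal axis). Black squares are medians of all genes of at least 10 CPM in a length class, blue points the other 9 genes and the red point MYO5A. In SC10 replicate 3 the medians run from 0.134 in the shortest class to -0.151 in the longest, and MYO5A lies at -0.345.

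MREG encodes melanoregulin, known from mice as a modifier of pigment dilution and a link to retrograde movement of melanosomes (ENSG00000118242, chromosome 2, 215942805 to 216034096, minus strand). MREG measured 169, 170 and 192 CPM in SC10, 131, 123 and 125 CPM in SC07, and 133, 132 and 134 CPM in SC01. SC10 lay above the other clones. MREG had a log2 change of 0.41 ± 0.048 (adjusted p = 1.94e-08, edgeR) in SC10 against SC01 and 0.49 ± 0.048 (adjusted p = 2.39e-09) in SC10 against SC07. SC07 against SC01 gave -0.08 ± 0.048 (adjusted p = 0.176), and it passed without SC10 replicate 3 (adjusted p = 0.0406), in the fit of that pair alone (adjusted p = 0.0469) and with library totals (-0.18, adjusted p = 0.00151). Of its exon bases 4.48% are shared with PECR, a peroxisomal enzyme gene on the same strand, which measured 48.6 ± 1.2 CPM in SC10, 29.7 ± 0.78 CPM in SC07 and 20.5 ± 1.8 CPM in SC01 (SD, n = 3 each).

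Levels were compared between genes per exon length, as TPM (counts per exon length from GENCODE 29, scaled to 1 sum in every library). RAB38 was highest in every clone, at 408 ± 13 TPM in SC10, 343 ± 0.52 TPM in SC07 and 342 ± 14 TPM in SC01 (SD, n = 3 each). RAB32 stood at 118 ± 6.4 TPM in SC10, 112 ± 6.4 TPM in SC07 and 151 ± 2.5 TPM in SC01. SLC24A5 was the lowest of the 10 in SC10 (16.8 ± 1.3 TPM) and SC07 (7.29 ± 0.29 TPM). In SC01 RAB27A was the lowest (33.5 ± 0.19 TPM), with SLC24A5 close to it (34.6 ± 1.1 TPM). The exon length used for SLC24A5 includes the bases shared with MYEF2. SLC45A2 had rank 3 among the 10 in SC10 (138 ± 1.5 TPM) and in SC07 (157 ± 2.7 TPM), and rank 7 in SC01 (46.7 ± 2.1 TPM). In the capture complex, RAB27A had 71.9 ± 1.1 TPM, MLPH 50.2 ± 1.7 TPM and MYO5A 121 ± 17 TPM in SC10. In SC07 they had 86.7 ± 4.1, 66.6 ± 3.8 and 83.5 ± 1.5 TPM. In SC01 they had 33.5 ± 0.19, 59.8 ± 0.30 and 73.1 ± 1.9 TPM. RAB27A thus had more TPM than MLPH in SC10 and SC07 and less in SC01, a description of levels with no test. TPM carries no TMM scaling, so clones are compared on CPM, and small differences depended on the scale. RAB38 had about the same TPM in SC07 and SC01 but differed on TMM-scaled CPM. OCA2 had less TPM in SC10 (130 ± 0.55) than in SC01 (139 ± 3.5) but more CPM. MLPH, level on CPM in these 2 clones, had less TPM in SC10 than in SC01. RAB32 in SC10, and MREG and TPCN2 in SC07, also had less TPM than in SC01, with no call on CPM.

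The genes were also read beside their place in the genome, since the medians of some whole chromosomes differed between the clones. Of the 10 genes, 4 lie on chromosome 15, and the 610 tested genes of that chromosome had medians of -0.06, -0.03 and -0.05 on the log2 scale in SC10 against SC01, SC07 against SC01 and SC10 against SC07. Against SC01, the log2 changes in SC10 and SC07 were 1.36 and 1.57 for RAB27A, 0.98 and 0.39 for MYO5A, 0.16 and 0.63 for OCA2, and -0.78 and -2.05 for SLC24A5. The 17 tested neighbours with a start within 2 Mb of that of RAB27A had medians of 0.10 in SC10 and -0.12 in SC07 against SC01. The 17 neighbours of MYO5A, in a window that overlaps that of RAB27A, had 0.00 and 0.06. The 13 neighbours of OCA2 had 0.19 and 0.02, and the 16 neighbours of SLC24A5 had -0.27 and -0.30. The 18 neighbours of SLC45A2 had 0.31 and 0.14, and chromosome 5 as a whole -0.02 and -0.24.

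TPCN2 and RAB38 lie on chromosome 11, where 547 of 975 tested genes were higher and 60 lower in SC10 against SC07, with a median of 0.28. Over all chromosomes, 24.8% of genes tested were higher and 23.0% lower in that comparison. The log2 changes of TPCN2 (0.39) and RAB38 (0.32) there stood near the median of chromosome 11. Against SC01 the median of chromosome 11 was 0.25 in SC10 and -0.01 in SC07, beside 0.35 and -0.04 for TPCN2 and 0.52 and 0.20 for RAB38. The 15 neighbours of RAB38 had medians of 0.63 in SC10 and 0.26 in SC07 against SC01, and 0.37 in SC10 against SC07, and the 52 neighbours of TPCN2 had 0.28, -0.02 and 0.27. RAB32 lies on chromosome 6, whose 873 tested genes had a median of -0.42 in SC10 and -0.40 in SC07 against SC01, beside its -0.09 and -0.24, and its 9 neighbours had -0.54 and -0.48. On chromosome 2 the medians were 0.26 in SC10 and 0.25 in SC07 against SC01, beside 0.41 and -0.08 for MREG and 0.01 and 0.35 for MLPH. The 20 neighbours of MREG had -0.28 and -0.10, opposite in sign to the chromosome and, in SC10, to MREG, and the 20 neighbours of MLPH had 0.14 and 0.26. The part of these chromosome-wide differences in the changes of the 10 genes was not tested.

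**Figure D4:**
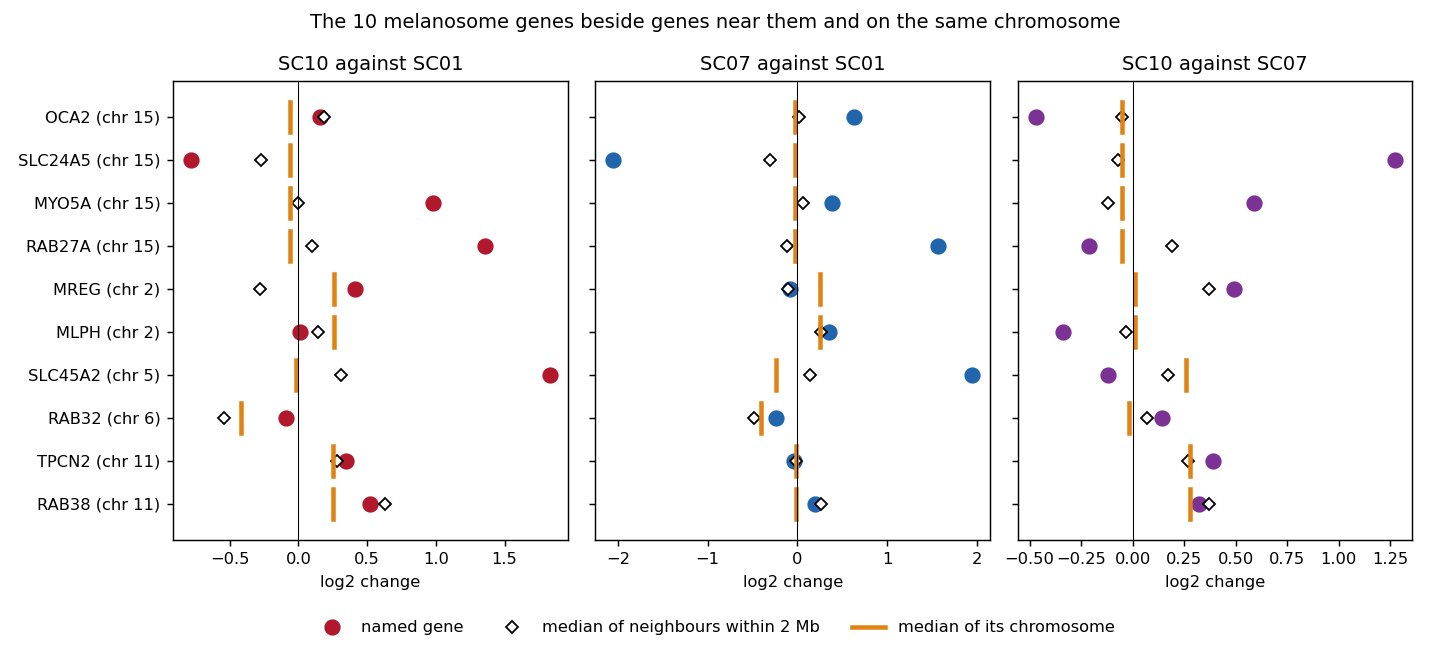
Log2 change (horizontal axis, with its own range in each panel) of each of the 10 genes (coloured points) beside the median of the tested genes within 2 Mb of it (open diamonds) and of its chromosome (orange bars), in the 3 comparisons. TPCN2 and RAB38 lie near the median of chromosome 11 (0.28) in SC10 against SC07, while SLC45A2, RAB27A and SLC24A5 lie far from the medians of their chromosomes against SC01. In SC10 against SC01 MYO5A (0.98) also lies far from the median of chromosome 15 (-0.06).

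The wider pathway was read from lists of other genes. Of all genes tested, 33.5% were higher and 32.4% lower in SC10 against SC01. The shares were 31.5% and 30.5% in SC07 against SC01, and 24.8% and 23.0% in SC10 against SC07. The 25 subunits of the BLOC, AP-3 and HOPS complexes and LYST, which build lysosome-related organelles, had 11 higher and 10 lower in SC10 against SC01, 9 higher and 11 lower in SC07 against SC01, and 9 higher and 8 lower in SC10 against SC07. Their median log2 changes were 0.04, -0.09 and -0.04. Library totals moved the first split to 7 higher, and the last count of lower genes was 4 without SC07 replicate 1 and 5 without SC07 replicate 3. The 2 largest changes were in subunits of different BLOC complexes. HPS4, part of the complex that activates RAB32 and RAB38, had 538 ± 14 CPM in SC10, 764 ± 13 CPM in SC07 and 340 ± 7.9 CPM in SC01, and HPS5, a BLOC-2 subunit, had 414 ± 10 CPM, 327 ± 4.4 CPM and 202 ± 3.2 CPM in the same order (SD, n = 3 each). HPS4 rose by 0.66 ± 0.041 in SC10 and 1.17 ± 0.041 in SC07 on the log2 scale, and HPS5 by 1.04 ± 0.041 and 0.70 ± 0.041, against SC01. HPS1, the partner of HPS4, was lower in both clones by -0.22 and -0.27, and was singled out after its values were seen. VPS33A of HOPS (-0.67 ± 0.067 in SC10 against SC01), AP3S1 of AP-3 (-0.66 ± 0.066 in SC07 against SC01) and BLOC1S1 of BLOC-1 (-0.66 ± 0.077 in SC10 against SC07) followed in size. VPS33A, AP3S1 and BLOC1S1 share 21.5%, 11.8% and 29.8% of their exon bases with other genes.

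Of 29 genes of the Rab cycle, Rab effectors and motors, 28 were tested. Of these, 14 were higher and 8 lower in SC10 against SC01, 14 and 8 in SC07 against SC01, and 8 and 8 in SC10 against SC07, with medians of 0.14, 0.14 and -0.04. All genes tested gave 33.5% and 32.4%, 31.5% and 30.5%, and 24.8% and 23.0%. The largest changes were in effectors that bind RAB27A. SYTL5 measured 83.6, 81.3 and 66.5 CPM in SC10, 28.1, 27.8 and 25.5 CPM in SC07, and 4.42, 4.96 and 4.01 CPM in SC01. SC10 replicate 3 was the lowest SC10 library here too. SYTL4, also called granuphilin, measured 13.0, 13.0 and 13.9 CPM in SC10, 8.25, 8.51 and 7.16 CPM in SC07, and 0.879, 1.01 and 0.838 CPM in SC01. The order was SC10 over SC07 over SC01 for both. Their log2 changes were 4.11 ± 0.096 and 3.87 ± 0.133 in SC10 against SC01 and 2.60 ± 0.101 and 3.13 ± 0.140 in SC07 against SC01 (adjusted p of at most 4.72e-15, edgeR). SYTL4 shares 17.5% of its exon bases with a gene on the opposite strand, and the part of that gene in its counts was not tested.

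SYTL2, the effector that tethers melanosomes at the plasma membrane, moved oppositely and was singled out after its values were seen. SYTL2 measured 41.7, 39.4 and 39.1 CPM in SC10, 23.9, 22.8 and 22.2 CPM in SC07, and 100, 90.5 and 91.3 CPM in SC01, with log2 changes of -1.23 ± 0.053 in SC10 and -2.04 ± 0.056 in SC07 against SC01. RAB27B, the close relative of RAB27A, was low throughout, at 0.327, 0.623 and 0.207 CPM in SC10, 0.639, 0.516 and 0.239 CPM in SC07, and 4.97, 3.67 and 4.67 CPM in SC01. It was lower than in SC01 by -3.52 ± 0.284 in SC10 and -3.24 ± 0.275 in SC07, where RAB27A was higher. Those levels rest on 12, 21 and 7 counts in SC10 and 21, 20 and 8 counts in SC07, against 181, 116 and 156 counts in SC01. MYO7A, a motor of retinal melanosomes, and UNC13D, an effector in lytic granules, were also low, with clone means of 0.498 to 2.58 CPM and 0.654 to 3.08 CPM, and rose by 2.29 and 1.27 in SC10 and by 2.37 and 2.22 in SC07 against SC01.

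**Figure D5:**
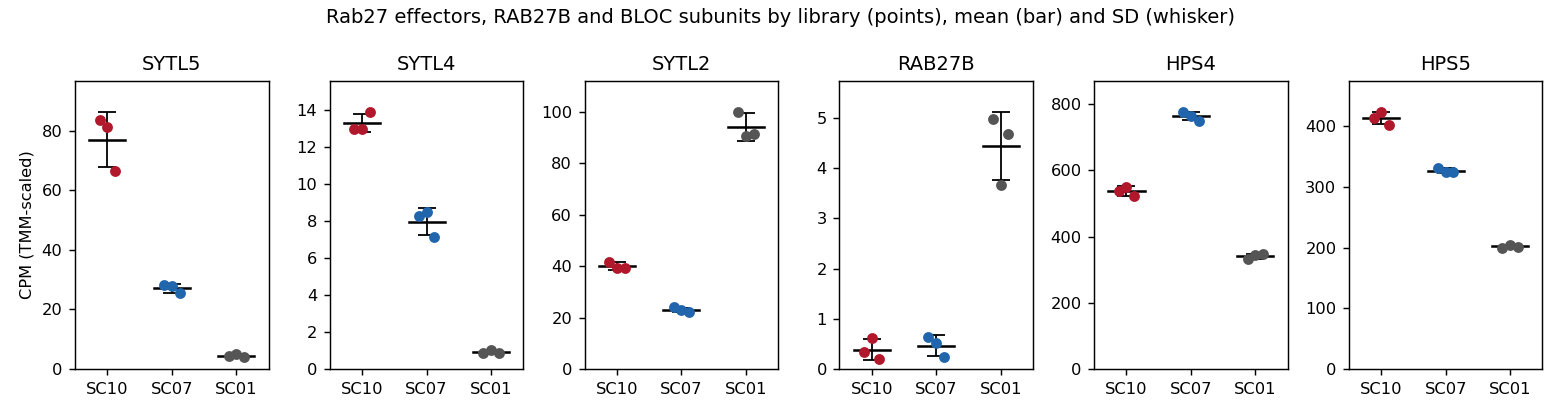
TMM-scaled CPM (vertical axis, from 0) of 3 effectors of RAB27A, of RAB27B and of 2 BLOC subunits in each library, by clone. Points are libraries, bars are means and whiskers are SD of 3 libraries. SYTL5 and SYTL4 are highest in SC10 and lowest in SC01, and SYTL2 and RAB27B are highest in SC01.

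Of 8 other genes, mostly for transporters and channels of melanosomes and lysosomes, 5 were higher and 2 lower in SC10 against SC01. The counts were 6 and 2 in SC07 against SC01, and 2 and 2 in SC10 against SC07. All genes tested gave 33.5% and 32.4%, 31.5% and 30.5%, and 24.8% and 23.0%. SLC7A11, which imports cystine at the cell surface, changed most, with 23.4 ± 2.4 CPM in SC10, 54.9 ± 0.69 CPM in SC07 and 3.82 ± 0.069 CPM in SC01 (SD, n = 3 each), log2 changes of 2.61 and 3.84 against SC01. MFSD12, which moves cysteine into melanosomes, was lower, with 1830 ± 38 CPM in SC10, 1560 ± 100 CPM in SC07 and 2200 ± 57 CPM in SC01 (log2 -0.26 and -0.49 against SC01). MFSD12 shares 23.9% of its exon bases with genes on the opposite strand. MCOLN1, a cation channel of lysosomes, rose by 0.98 and 0.76, GPR143, a melanosome receptor, by 0.45 and 0.52, and CTNS, the cystine exporter of lysosomes, by 0.45 and 0.42, in SC10 and SC07 against SC01.

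Of 14 paralogs of the 10 genes, 12 were tested. Of these, 5 were higher and 2 lower in SC10 against SC01, 5 and 3 in SC07 against SC01, and 1 and 1 in SC10 against SC07. All genes tested gave 33.5% and 32.4%, 31.5% and 30.5%, and 24.8% and 23.0%. The count of higher paralogs in SC10 fell to 3 without SC01 replicate 1, without SC10 replicate 2 and with library totals, and that in SC07 to 3 without SC01 replicate 1 or SC07 replicate 2. RAB27B and MYRIP are in both this list and that of the Rab cycle, effectors and motors. RAB27B, described above, had the largest change of the paralogs (-3.52 in SC10 against SC01). SLC45A4 was higher by 0.97 ± 0.087 in SC10 and 0.89 ± 0.087 in SC07 against SC01, and SLC8B1, a mitochondrial exchanger, by 0.56 ± 0.076 and 0.64 ± 0.075. MYO5B and MYO5C, the other class V myosins, stood at clone means of 0.528 to 1.01 CPM and 0.442 to 1.24 CPM, with log2 changes against SC01 of 1.47 (SC10) and 1.15 (SC07) for MYO5C and 0.96 (SC07) for MYO5B. For MYO5B in SC10 the value was 0.62 (adjusted p = 0.103, edgeR). TPCN1, the paralog of TPCN2, was not among the 5 largest changes and was singled out. TPCN1 had 146 ± 7.7 CPM in SC10, 145 ± 2.6 CPM in SC07 and 151 ± 3.5 CPM in SC01, with no difference past the threshold (adjusted p from 0.278 to 0.904, edgeR), where TPCN2 was higher in SC10.

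Of the 8 melanocyte markers, 7 were tested. Against SC01, 5 were higher and 2 lower in SC10, and 5 and 2 in SC07. In SC10 against SC07, 2 were higher and 5 lower. All genes tested gave 33.5% and 32.4%, 31.5% and 30.5%, and 24.8% and 23.0% in these comparisons. From this list TYR and TYRP1 are described outside the naming rule of the other lists. TYR, the enzyme that starts melanin synthesis, averaged 823 ± 13 CPM in SC10, 902 ± 5.7 CPM in SC07 and 452 ± 21 CPM in SC01 (SD, n = 3 each). It had the same order of clones as SLC45A2 and RAB27A. TYRP1, a later enzyme, averaged 702 ± 17 CPM in SC10, 1210 ± 6.2 CPM in SC07 and 2390 ± 66 CPM in SC01. In these bulk libraries, fewer cells that carry a transcript and less of it per cell cannot be told apart, for these genes as for the 10 described.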

How the data were processed

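The authors deposited raw counts per Ensembl gene for 9 libraries, made with HISAT2 and featureCounts on GRCh38 per the submitters' processing notes. The sources used here give no versions, annotation release, strand setting or rule for reads with several matches. Libraries were assigned to clones by their labels. Names, positions and exon lengths came from GENCODE 29 on GRCh38, which held 57055 of 60675 IDs and all 10 genes.

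After filterByExpr kept 18009 genes, TMM factors were computed and 1 model of all libraries was fitted (edgeR 4.0.16, R 4.3.3), with the robust quasi-likelihood test and Benjamini-Hochberg adjustment over all genes tested at a threshold of 0.05. Standard errors were derived from the log2 change and its F statistic. The fit was tested on simulated data. Alternatives were other scalings and filters, DESeq2 1.42.0, limma-voom 3.58.1, a 1.5-fold null, each pair alone, a non-robust fit, a replicate block and each library left out. From each other list, up to 5 genes with the largest change past the threshold were named, and genes whose exons overlap one of the 10. HPS1, SYTL2, TPCN1, TYR, TYRP1 and other cell type markers were named outside this rule. The 10 genes and the lists were chosen with earlier results of these data known. The summaries by exon length and by promoter motif were chosen after the values were seen. Floors cover counting error only.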

Additional observations from a re-analysis of the deposited data

How the results depend on the processing

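Over all alternatives, 530 values of the log2 changes of the 10 genes kept their direction and side of the threshold, 30 lost the threshold (18 of these in the test against a 1.5-fold change), 6 gained it and 4 turned sign, all for MLPH in SC10 against SC01, a value near 0 that never passed the threshold (-0.10 with library totals, 0.00 with a minimum of 1 CPM in 3 libraries, -0.01 without SC01 replicate 1 and -0.02 without SC10 replicate 3, in a range of -0.02 to 0.04 over the libraries left out). Against a 1.5-fold change, 4 of the 10 genes passed in SC10 against SC01 (3 higher), 3 in SC07 against SC01 (2 higher and 1 lower) and 1 in SC10 against SC07 (1 higher and 0 lower). Over all genes that test passed 4192 (2476 higher, 1716 lower), 3703 (1978 and 1725) and 1444 (993 and 451). With library totals, 2 of the 10 were lower in SC10 and 4 in SC07, against SC01. Leaving out a library in turn gave 1 to 2 of the 10 lower in SC10 against SC01 (2 without SC10 replicate 3), with 8 to 9 called there, 8 to 9 in SC07 against SC01 and 9 to 10 in SC10 against SC07. Of all genes, those fits called 11299 to 12026, 10454 to 11793 and 7627 to 8548 in these comparisons. In SC10 against SC01, 5481 to 5889 of all genes were lower. The correlation of deviations between same-numbered libraries was -0.02 to 0.0841, against -0.0947 to 0.0877 between others. Replicate 3 of each clone had the same direction by gene length, as given above. Whether the replicate numbers mark a shared batch cannot be told from these values. With the replicate block 8, 8 and 10 of the 10 genes were called, as without it, and 11926, 11249 and 8754 of all genes. At this depth, genes under about 1 CPM, such as RAB27B in SC10 and SC07, rest on few counts.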
